A study of Arabidopsis thaliana with 24 samples.

Results

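This account covers the 488 long transposable elements of the Arabidopsis thaliana chromosome arms, out of 31189 nuclear transposable elements and 69289 features in the deposited table. An element was a member when the table lists it as a transposable element of at least 2000 bp whose start lies outside the pericentromere, the gene-poor region around each centromere. The borders used were 11.5 to 17.7 Mb on chromosome 1, 1.1 to 7.2 Mb on chromosome 2, 10.3 to 17.3 Mb on chromosome 3, 1.5 to 6.3 Mb on chromosome 4 and 9 to 16 Mb on chromosome 5. No measured value entered this choice. The arms held 136, 86, 76, 80 and 110 members on chromosomes 1 to 5.

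Bisulfite sequencing reads cytosine methylation in DNA, and it was done here on nuclei sorted from Col-0 plants of 4 genotypes labelled wt21 (wild type), ago5, ago9 and ago59. Sperm nuclei came from pollen of plants at 35 days after germination, with 50000 nuclei a replicate, and stem-cell nuclei from seedlings at 7 days, sorted for the red fluorescent reporter mCherry, with 3000 to 4000 nuclei a replicate. The labels name no promoter for the reporter, no alleles of the mutants and no meaning of 21 in wt21, and ago59 joins the names of the 2 single mutants. The labels list 24 samples, with 2 replicates in each of 8 groups and 8 second sequencing runs of stem-cell samples, but the table holds 1 pool per group, so no group has a replicate to test against. Cell type also goes with plant age, organ, number of nuclei and sorting method, which cannot be told apart from it here, and DNA methylation gives no marker that would check the sorted cell types.

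Plants methylate cytosines in 3 sequence contexts, CG, CHG and CHH, where H is A, C or T. As background, MET1 copies CG methylation at replication and CMT3 maintains CHG methylation in a loop with histone H3 lysine 9 methylation. CHH methylation is placed anew, by CMT2 mostly in the bodies of long heterochromatic elements and by DRM2 at short elements and element edges, where small RNAs held by ARGONAUTE proteins guide it. AGO5 and AGO9 are ARGONAUTE proteins known for their activity in reproductive tissue, and AGO9 belongs to the same clade as AGO4. The series is titled for the function of these proteins in the shoot apical meristem, the stem-cell region at the tip of the shoot.

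The members differed widely in sequence. Their median length was 3217 bp, from 2000 to 16936 bp, and their median GC content was 35.7%, from 18.8% to 51.3%. The 3 longest lay on chromosome 2 and overlapped transposable element genes: AT2TE45465 of 16936 bp, AT2TE00015 of 16355 bp and AT2TE02465 of 15815 bp. In all, 266 members overlapped a transposable element gene and 137 a gene, 49 of them both, while 11 overlapped a pseudogene and 130 none of these, and 15 lay inside a gene. Direct terminal repeats, the mark of intact long-terminal-repeat retrotransposons, were found in 84 members (at least 80% identity to the first 100 bases). Members that shared 25-base words over at least 20% of their words formed 42 groups of 207 members, and 281 shared with no other. The largest group held 59 members on 5 chromosomes, with a median length of 2460 bp, a median GC content of 21.4% and terminal repeats in 1 of the 59. In 8 pairs, 1 member overlapped another, so that 15 members share calls.

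To show what lies at the ends of the CHH scale, the first 240 bases of the 3 members with the lowest and the 3 with the highest CHH level in wt21 stem-cell nuclei are printed here, among members with at least 50 CHH calls in every pool. They were read on the annotated strand from RefSeq's TAIR10.1 genome, 5′ to 3′, and capitals mark the CHH cytosines of that strand, the sites where CHH methylation can occur. The 3 lowest were AT4TE53540 (chr4:11592609-11592848, plus strand), AT5TE17325 (chr5:4788495-4788734, plus strand) and AT4TE67490 (chr4:14258825-14259064, plus strand).
AT4TE53540: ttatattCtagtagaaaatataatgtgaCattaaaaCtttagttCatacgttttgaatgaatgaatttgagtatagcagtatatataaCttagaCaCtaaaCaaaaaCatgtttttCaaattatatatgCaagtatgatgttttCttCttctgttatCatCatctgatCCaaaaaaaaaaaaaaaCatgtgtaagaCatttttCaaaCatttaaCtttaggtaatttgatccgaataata
AT5TE17325: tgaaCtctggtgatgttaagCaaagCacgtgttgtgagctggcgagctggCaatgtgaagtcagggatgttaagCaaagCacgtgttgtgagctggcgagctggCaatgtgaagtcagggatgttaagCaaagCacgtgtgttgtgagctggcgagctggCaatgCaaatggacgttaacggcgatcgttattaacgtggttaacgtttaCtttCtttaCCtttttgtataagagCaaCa
AT4TE67490: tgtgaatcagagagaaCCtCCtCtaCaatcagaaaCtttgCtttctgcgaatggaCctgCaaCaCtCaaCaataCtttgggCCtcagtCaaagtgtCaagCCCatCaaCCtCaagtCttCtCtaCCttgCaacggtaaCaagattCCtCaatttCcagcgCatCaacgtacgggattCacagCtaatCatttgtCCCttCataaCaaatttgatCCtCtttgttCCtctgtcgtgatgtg
The 3 highest were AT3TE84550 (chr3:20786392-20786631, plus strand), AT5TE24040 (chr5:6635102-6635341, minus strand) and AT1TE21210 (chr1:6538419-6538658, plus strand).
AT3TE84550: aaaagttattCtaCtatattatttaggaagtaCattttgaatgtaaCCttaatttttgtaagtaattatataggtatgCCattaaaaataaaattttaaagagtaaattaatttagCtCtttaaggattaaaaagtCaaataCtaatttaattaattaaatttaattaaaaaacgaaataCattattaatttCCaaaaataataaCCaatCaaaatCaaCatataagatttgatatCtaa
AT5TE24040: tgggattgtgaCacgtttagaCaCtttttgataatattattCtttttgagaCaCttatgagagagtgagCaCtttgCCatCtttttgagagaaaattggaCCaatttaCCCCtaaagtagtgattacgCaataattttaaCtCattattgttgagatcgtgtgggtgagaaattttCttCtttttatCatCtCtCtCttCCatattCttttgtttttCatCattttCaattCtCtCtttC
AT1TE21210: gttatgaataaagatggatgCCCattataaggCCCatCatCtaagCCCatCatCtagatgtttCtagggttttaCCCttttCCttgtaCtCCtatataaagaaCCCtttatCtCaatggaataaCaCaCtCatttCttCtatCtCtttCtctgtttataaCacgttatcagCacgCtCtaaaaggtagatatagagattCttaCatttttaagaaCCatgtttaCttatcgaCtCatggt
The 3 lowest stretches hold 22, 17 and 52 CHH cytosines, and the 3 highest 20, 37 and 47. In these stretches, on the strand shown, the counts of the lowest and the highest members overlapped. Counts over whole elements were not compared. Over the whole element, GC content was 24.0%, 40.9% and 41.5% in the 3 lowest and 20.9%, 34.0% and 29.1% in the 3 highest.

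A level is the share of cytosine calls in an element that were methylated. The pools held between 204779091 and 303354876 calls, of which 2007896 to 2814645 fell in members. Levels were compared for members with at least 20 calls of the context in all 8 pools, which 413 of 488 members had for CG, 400 for CHG and 481 for CHH. The error given for a mean difference is its 95% half-width from counting error only, and since calls of one read are not independent, the true error is larger. In chloroplast features, whose DNA carries no cytosine methylation in plants by textbook accounts, the CHH level was 0.303% to 0.312% in the stem-cell pools, and in sperm it was 1.37% (wt21), 1.34% (ago5), 4.56% (ago9) and 1.06% (ago59). The sperm values rest on 18577 to 32063 calls, and their part in the results below was not tested. Chloroplast features held 0.0125% to 0.0230% of CHH calls in sperm and 4.40% to 4.73% in stem-cell pools. Mitochondrial features had CG levels of 90.2% to 92.4% in sperm and 8.72% to 10.2% in stem-cell pools. Whether the sperm calls come from organelle DNA was not tested, so the sperm chloroplast level is not a measured floor.

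Most long arm elements were methylated, and a minority had almost no methylation. In wt21 stem-cell nuclei, 204 of 413 members had a CG level of at least 80% and 67 were under 10%. In wt21 sperm nuclei the same counts were 247 and 66. For CHG, 158 of 400 members stood at 50% or more in wt21 stem-cell nuclei and 118 under 10%. For CHH, 211 of 481 members reached 10% and 81 stayed under 1%.

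The members with the lowest CHH levels were nearly free of methylation in every context, with at most 3.45% in either wt21 pool. AT4TE67490, a 5006 bp element with terminal repeats that overlaps the transposable element gene AT4G28900, had CHH levels of 0.13%, 0.28%, 0.233% and 0.271% in wt21, ago5, ago9 and ago59 stem-cell nuclei and 0.873%, 0.734%, 0.713% and 0.678% in the sperm pools. Each value rests on at least 11508 calls, and the wt21 stem-cell interval (Wilson, 95%) was 0.0853% to 0.199% against 0.724% to 1.05% in wt21 sperm. All 4 sperm values exceeded all 4 stem-cell values, and all were below the chloroplast level of their own pool. Its CG level was 0.257% in stem-cell and 0.596% in sperm nuclei of wt21. AT5TE17325, which overlaps AT5G14810 and has 9.20% of its 31-base words found once in the genome, had 0.119% in wt21 stem-cell and 0.44% in wt21 sperm nuclei. AT4TE53540, which overlaps no gene and is 99.2% unique by the same measure, had 0.105% and 1.06%.

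The members with the highest CHH levels were methylated in every context, and their pools spread widely. AT3TE84550, of the largest sequence group, had CHH levels of 35.9%, 36.3%, 32.6% and 22% in wt21, ago5, ago9 and ago59 stem-cell nuclei and 17.5%, 26.6%, 30.6% and 23% in sperm nuclei. In wt21 the intervals of stem-cell (29.5% to 42.7%) and sperm nuclei (10.7% to 27.3%, from 80 calls) did not overlap, but over the 4 genotypes the values of the cell types did. AT5TE24040, with 1.79% unique words, had 31.7%, 20.9%, 21% and 26.1% in stem-cell nuclei and 39.2%, 35.4%, 30.9% and 24.3% in sperm nuclei. AT1TE21210, which has terminal repeats and overlaps AT1G18930, had 28.8%, 33.8%, 22% and 26.5% in stem-cell nuclei and 25.7%, 12.1%, 14.6% and 19.5% in sperm nuclei, where wt21 was the highest of the 4.

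In every genotype, sperm nuclei had higher CG and CHG levels and lower CHH levels of long arm elements than stem-cell nuclei. Mean CG levels were 59.0%, 58.9%, 58.6% and 58.3% in wt21, ago5, ago9 and ago59 stem-cell nuclei and 68.7%, 67.3%, 68.6% and 68.0% in sperm nuclei. The mean CHG level was 34.7%, 34.2%, 34.0% and 33.5% in stem-cell nuclei and 38.3%, 35.1%, 37.7% and 35.1% in sperm nuclei. The mean CHH level was 8.85%, 8.87%, 8.69% and 8.54% in stem-cell nuclei and 7.20%, 5.61%, 6.84% and 5.97% in sperm nuclei. The cell types did not overlap over the 4 genotypes in any context. Over the 4 genotypes the difference, sperm minus stem-cell, was 9.43 points ± 0.707 (SD, n = 4) for CG, 2.45 ± 1.48 for CHG and −2.33 ± 0.738 for CHH. An exact sign-flip test over the 4 genotypes gave p = 0.13 (two-sided) in each context, the smallest p that 4 genotypes allow.

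**Figure D1:**
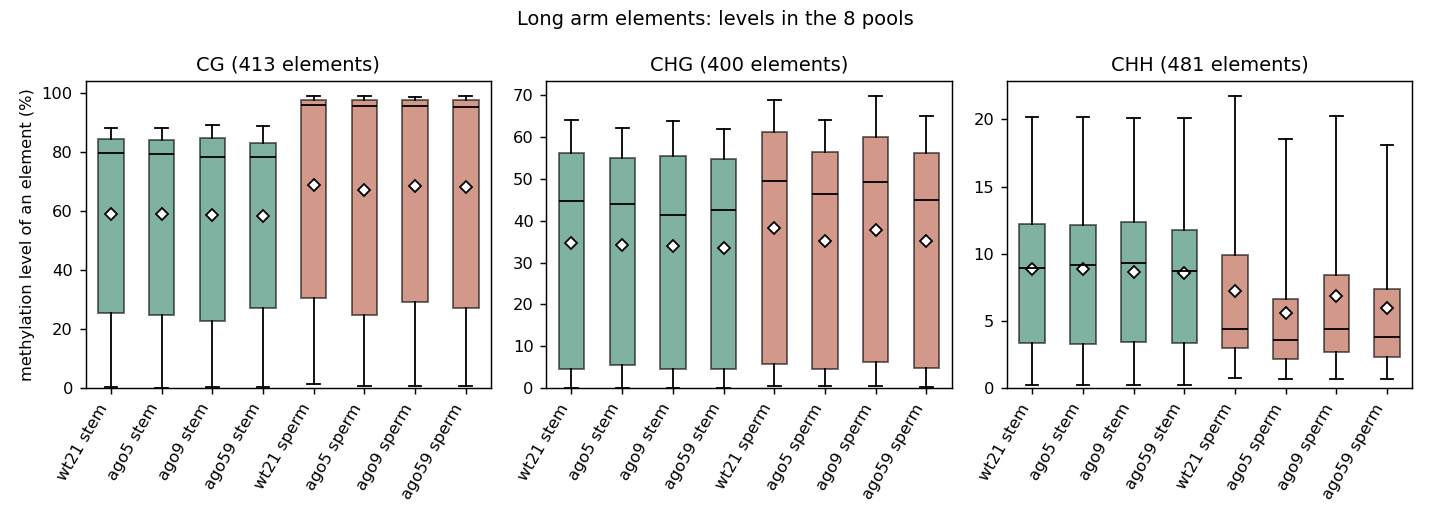
Methylation level of each long arm element (%) in the 8 pools, in CG, CHG and CHH. Boxes span the quartiles with the median as a line, whiskers the 5th to 95th percentile of elements, and diamonds mark the mean; in wt21 the CG median moves from 79.7% in stem-cell to 95.9% in sperm nuclei and the CHH median from 8.96% to 4.44%.

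In wt21, CG was higher in sperm in 380 of 413 members, and CHG in 306 of 400. The mean differences were 9.69 ± 0.363 and 3.64 ± 0.416 points. CHH was lower in sperm in 280 of 481 members and higher in 201, with a mean difference of −1.65 ± 0.159 points, while the single members varied with an SD of 6.16 points. With the level over all calls of the members, which weights each member by its calls, the CHH difference was −3.29 points. A CG level at least 10 points higher in sperm was seen in 237 of 413 members (57.4%), against 55.7% of the 10803 transposable elements with enough calls, and a level at least 10 points lower in 8 (1.94%), against 0.916%. For CHG, 66 of 400 members (16.5%) were at least 10 points higher, against 18.8% of all elements, and 18 (4.50%) were lower, against 5.76%. For CHH, where 5 points were asked, 153 of 481 (31.8%) were lower, against 21.0% of all elements, and 53 (11.0%) were higher, against 9.70%. The share of members called thus exceeded that of all elements in both directions for CG and CHH, and fell below it in both for CHG. The shares were close except among those lower in CHH and among those lower in CG, on 8 members. At a limit of 10 points for CHH, 15 members were lower and 23 higher, and no share of all elements was taken at that limit. When Fisher's exact test of the 2 pools' calls was added, 227 members (55.0%) were higher in CG, against 49.4% of all elements, and 4 (0.969%) lower, against 0.231%. For CHG under that rule 43 (10.8%) were higher, against 9.68%, and 4 (1.00%) lower, against 1.35%. For CHH 148 (30.8%) were lower, against 16.8%, and 45 (9.36%) higher, against 7.20%. Fisher's test passes a given difference more readily with more calls, and most of all elements are shorter than 2000 bp. The part of call number in the shares under that rule was not tested.

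The CG difference followed how much of an element was methylated. Among the 198 members with a CG level of 80% or more in the mutant stem-cell pools, the mean was 84.4% in wt21 stem-cell and 97.3% in wt21 sperm nuclei, and 197 of 198 were higher in sperm. Among the 70 members under 10%, it was 3.00% and 4.05%. Classes were set on the 3 mutant stem-cell pools so that the class and the difference share no calls. Of 348 members with at least 50 CG calls in every pool, 287 were higher in sperm in all 4 genotypes and 5 were lower.

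AT2TE39520 had the most positive CG difference of those 287 and the most positive CHH difference as well. It overlaps the gene AT2G21850, and 84.2% of its 31-base words occur once in the genome. Its CG level was 21.7%, 17.9%, 21.9% and 22.2% in wt21, ago5, ago9 and ago59 stem-cell nuclei and 61.5%, 45.1%, 50% and 27.3% in sperm nuclei. Its CHH level was 5.02%, 2.76%, 4.98% and 6.46% in stem-cell nuclei and 13.4%, 18.5%, 14% and 15.5% in sperm nuclei. Every sperm value was above every stem-cell value in both contexts, and ago59 had the lowest CG level of the 4 sperm pools. AT1TE76215, a terminal-repeat element over AT1G62460, had CG levels of 70.8% to 76.2% in stem-cell and 95.2% to 98.4% in sperm nuclei. AT1TE36060, which overlaps no gene, had 61.5% to 81.6% and 90.3% to 98.2%.

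The 3 members with the most negative CG difference were of low to middle level. AT1TE31590, of the largest sequence group, had CG levels of 42.3%, 47.2%, 34.6% and 41.4% in stem-cell nuclei and 20.9%, 26%, 16.5% and 30.8% in sperm nuclei, so that the cell types did not overlap. AT4TE29795 overlaps RHA1A, which encodes a RING finger protein, and had 33.7% to 45.9% in stem-cell and 15.8% to 39.1% in sperm nuclei. AT2TE34310 overlaps RALFL11, which encodes a small peptide of the RALF signalling family, and had 18% to 30.6% and 12.5% to 19.2%. The ranges of these last 2 members overlapped between the cell types.

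For CHG, 168 of 330 members with at least 50 calls in every pool were higher in sperm in all 4 genotypes and 16 were lower. The most positive difference was in AT3TE18045, a 2114 bp element that lies wholly within the 11982 bp element AT3TE18040 on chromosome 3. AT3TE18040 had CHG levels of 51.6%, 50.3%, 52.5% and 49.1% in wt21, ago5, ago9 and ago59 stem-cell nuclei and 72.7%, 70.3%, 71.5% and 67.7% in sperm nuclei, each from at least 2467 calls. It overlaps 3 transposable element genes and is 97.0% unique. The element inside it had 49.2% to 54.1% in stem-cell and 71.7% to 79% in sperm nuclei, and shares its calls with it. AT1TE60740, which overlaps no gene, had CHG levels of 25.9% to 29.2% in stem-cell and 41.9% to 52.6% in sperm nuclei. Its CHH level was 5.95%, 10.1%, 10.8% and 6.5% in stem-cell nuclei and 21.8%, 14.5%, 18.2% and 16.6% in sperm nuclei, again without overlap.

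The most negative CHG differences were near 10 points. AT1TE08240, over the transposable element gene AT1G08105, had 57.6%, 52.4%, 54.5% and 58.2% in stem-cell nuclei and 45.6%, 42.3%, 46.7% and 43.5% in sperm nuclei. AT5TE61035 had 54.9% to 68.2% and 48.5% to 55.7%, and AT2TE31215 had 50.9% to 60% and 38.8% to 53.6%. These latter 2 had at most 164 calls in a pool, and their ranges overlapped.

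CHH methylation of long arm elements moved in both directions, and the direction went with GC content and length. Members were split into low-, middle- and high-GC sets of nearly equal size, with limits at 27.5% and 39.8%. In the low-GC set, 161 measured members with a median GC content of 22.3%, the mean CHH level was 9.12% in wt21 stem-cell and 11.7% in wt21 sperm nuclei, a difference of 2.60 ± 0.408 points, with 108 members higher and 53 lower. In the middle set it was 10.5% and 6.63% (−3.87 ± 0.219), and in the high-GC set 6.97% and 3.25% (−3.72 ± 0.110), with 110 of 161 members lower. With the level over all calls, the low-GC set was 1.52 points higher in sperm, and the middle and high-GC sets 3.62 and 3.49 points lower. Over the 481 members, Spearman's rho of the difference was −0.447 with GC content and −0.383 with length, given as a description, since members share libraries and sequence.

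**Figure D2:**
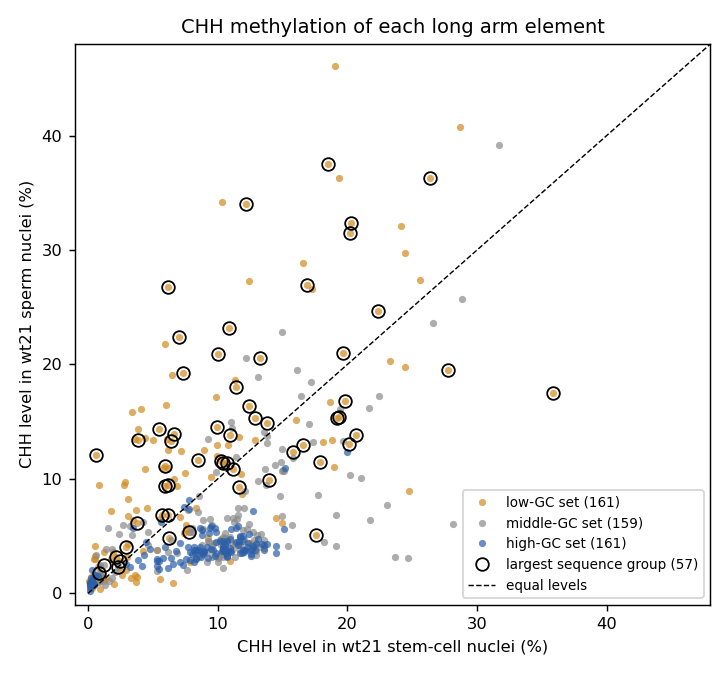
CHH level of each of 481 long arm elements in wt21 stem-cell (x axis, %) and wt21 sperm nuclei (y axis, %), coloured by GC content, with the 57 measured members of the largest sequence group ringed. Most of the high-GC set lies below the dashed line of equal levels, at sperm levels with a mean of 3.25%, and 108 of the 161 members of the low-GC set lie above it.

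Length gave the same picture. The 232 members under 3000 bp had a mean difference of 0.560 ± 0.294 points, those from 3000 to under 4000 bp −1.62 ± 0.343, those from 4000 to under 6000 bp −4.26 ± 0.187 and those of 6000 bp and more −4.49 ± 0.230. GC content and length go together, since the low-GC set had a median length of 2386 bp and the high-GC set 4633 bp. Among members under 3000 bp, the difference was 3.11 ± 0.478 in the low-GC set and −1.75 ± 0.175 in the high-GC set. Among members of 3000 bp and more it was 0.404 ± 0.669 and −4.46 ± 0.136. GC content therefore went with the difference within both length classes.

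What the elements overlap and carry was split in the same way. Members over a transposable element gene had a CHH difference of −4.28 ± 0.126 points where they overlapped no gene (n = 216) and of −4.09 ± 0.322 where they overlapped a gene as well (n = 47). Members over a gene but no transposable element gene had 1.82 ± 0.374 (n = 87), and those over neither 1.26 ± 0.471 (n = 131). The sign thus went with overlap of a transposable element gene, whether or not a gene was overlapped. Members with terminal repeats had −4.31 ± 0.284 and those without −1.10 ± 0.183. Of the 59 members of the largest sequence group, which is AT-rich, 38 overlapped no gene, pseudogene or transposable element gene. The overlap and repeat classes were not divided by GC content, length or sequence group, so these cannot be told apart here. The distance from the pericentromere did not order the members: the difference was −1.62 within 1 Mb, −1.67 from 1 to 3 Mb and −1.66 beyond 3 Mb. On the 5 chromosomes it lay between −2.55 and −1.44.

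The largest sequence group had the opposite sign to the members as a whole. Its mean CHH level was 11.8% in wt21 stem-cell and 14.8% in wt21 sperm nuclei, a difference of 3.01 ± 0.873 points, with 40 of 57 members higher in sperm. Its member AT5TE17300 had CHH levels of 7.35%, 6.27%, 5.21% and 7.14% in wt21, ago5, ago9 and ago59 stem-cell nuclei and 19.3%, 8.97%, 16.9% and 17.4% in sperm nuclei. The ago5 sperm value was the lowest of the 4 and rests on 78 calls. A second AT-rich group of 12 members, named here by AT1TE23505, had 14.6% and 18.7%. In contrast, all 7 members of the group of AT1TE12295 were lower in sperm, with means of 16.6% and 9.06%. The 12 members of the group of AT1TE14315, of high level in all contexts, had 17.1% and 15.9%.

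The AT-rich members were covered thinly. The median was 1.07 calls per CHH site in wt21 stem-cell and 0.881 in wt21 sperm nuclei in the low-GC set, against 6.23 and 5.54 in the high-GC set. The largest group, which is AT-rich as well, had 0.751 and 0.506. In the 55 lowest-GC members with at least 80% unique words, where it was 2.08 and 1.51, the mean CHH level was 3.63% in stem-cell and 6.08% in sperm nuclei, a difference of 2.45 ± 0.338 with 40 members higher and 15 lower. The difference thus had the same sign in members that are mostly unique in the genome. The part of depth in it was not tested.

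**Figure D3:**
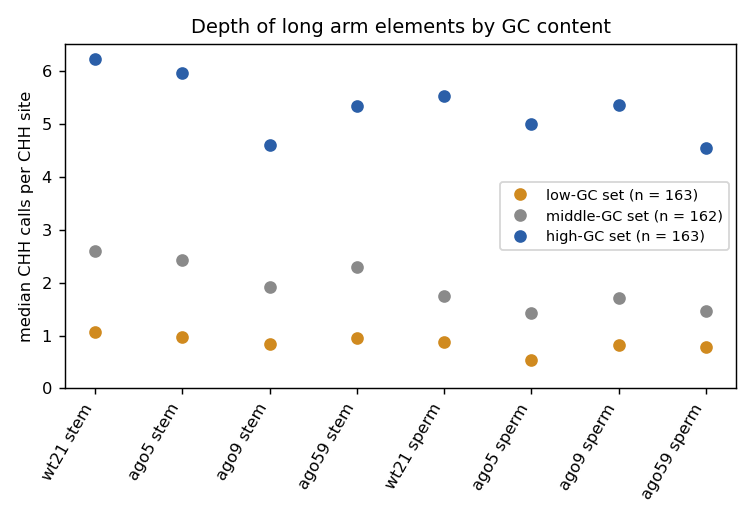
Median number of CHH calls per CHH site of the long arm elements in each of the 8 pools, by GC content. In the low-GC set the ago5 sperm pool lies lowest, at 0.533 calls per site against 0.881 in wt21 sperm, while in the high-GC set these pools have 5.01 and 5.54.

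The CHH difference also depended on the level. Of 75 members under 1% in the mutant stem-cell pools, 74 had a higher level in wt21 sperm, with stem-cell and sperm means of 0.423% and 1.06%, while the chloroplast CHH level of these pools differed in the same direction. Members at 1 to 5% had 2.98% and 3.97%, and those at 5 to 10% had 8.14% and 7.09%. Members at 10 to 20% had 13.4% and 9.34%, with 152 of 190 lower in sperm. The 18 members at 20% and more had 22.1% and 22.8%, a difference of 0.674 ± 1.75 points, which is within its counting error.

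Of 468 members with at least 50 CHH calls in every pool, 223 were lower in sperm in all 4 genotypes and 84 were higher. The 3 most negative differences all exceeded 13 points on average over the genotypes. AT3TE92525, a terminal-repeat element that overlaps the gene AT3G61320 and the transposable element gene AT3G61330, had CHH levels of 24.6%, 11.6%, 18.9% and 28% in wt21, ago5, ago9 and ago59 stem-cell nuclei and 3.12%, 7.44%, 4.83% and 7.91% in sperm nuclei. AT1TE09080, of 12272 bp, overlaps XIC, which encodes a class XI myosin, and the transposable element genes AT1G08735 and AT1G08740, and had 11% to 27% in stem-cell and 3.64% to 8.47% in sperm nuclei. AT1TE84245, which overlaps no gene, had 10.5% to 23.7% and 1.8% to 8.63%. None of the 3 overlapped between the cell types, but 2.54%, 0.286% and 28.7% of their 31-base words are unique in the genome, and how reads that match several copies were counted is not given in the sources used here.

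The ago5 and ago59 sperm pools had less CHG and CHH methylation of long arm elements than the wt21 sperm pool, and their differences in stem-cell nuclei were smaller. In sperm, CHG was lower by 3.23 ± 0.480 points in ago5 and 3.22 ± 0.462 in ago59, with 309 and 318 of 400 members lower, and CHH was lower by 1.60 ± 0.197 and 1.23 ± 0.178 points, with 343 and 359 of 481 members lower. In ago9 sperm the differences were −0.567 ± 0.450 for CHG and −0.361 ± 0.179 for CHH. The 3 mutants were compared with the same wt21 pool, so an error of that pool enters all of them. With the level over all calls, the CHH differences in sperm were smaller: that of ago5 was −0.658 points, and the differences of ago9 and ago59 were −0.139 and −0.558.

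Relative to wt21, the mean CHH level in sperm was 22.2% lower in ago5 and 17.1% lower in ago59. The CG differences in sperm were −1.43 ± 0.385 (ago5), −0.122 ± 0.359 (ago9) and −0.677 ± 0.365 (ago59). In the stem-cell pools, CHG differed from wt21 by −0.428 ± 0.386 in ago5, −0.687 ± 0.405 for ago9 and −1.14 ± 0.385 for ago59, and CHH by 0.0196 ± 0.140, −0.166 ± 0.146 and −0.312 ± 0.139. The sperm difference minus the stem-cell difference was −2.80 ± 0.616 for CHG and −1.62 ± 0.241 for CHH in ago5, and −2.08 ± 0.602 and −0.919 ± 0.226 in ago59. In ago9 these were 0.119 ± 0.606 and −0.194 ± 0.231, within counting error. With 1 pool a group, no spread between replicates stands beside these values.

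**Figure D4:**
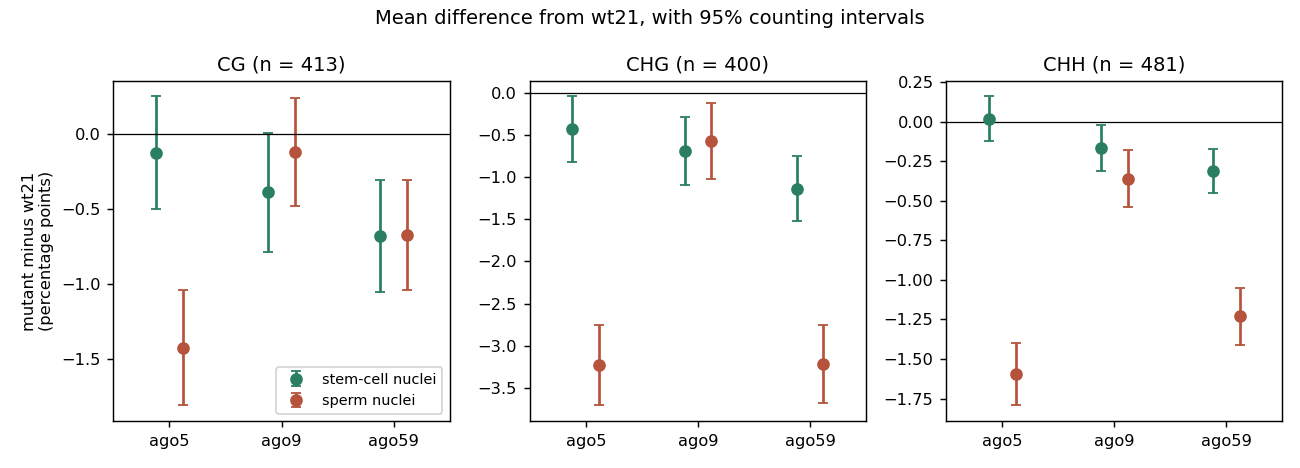
Mean difference of each mutant from wt21 over long arm elements (percentage points) in stem-cell and sperm nuclei, in CG, CHG and CHH, with bars for the 95% half-width from counting error. The ago5 and ago59 sperm points lie lowest in CHG, at −3.23 and −3.22, and in CHH, at −1.60 and −1.23.

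Few single members passed the limit of 5 points. In sperm CHH, 62 of 481 members (12.9%) were lower in ago5, against 10.8% of all elements, and 17 were higher, against 6.86%. In ago59, 57 (11.9%) were lower, against 10.3%, and 17 were higher, against 6.53%. In ago9, 39 were lower, against 8.81%, and 27 were higher, against 7.31%. By this limit alone, the shares of lower members were close to the background in all 3 mutants. When Fisher's exact test of the 2 pools' calls was added (adjusted over all elements, which compares pools and not genotypes), 39 members (8.11%) were lower in ago5 and 6 higher, against 3.26% and 2.29% of all elements. In ago9 these were 22 (4.57%) and 11, against 2.70% and 2.35%, and in ago59 26 (5.41%) and 4, against 3.83% and 2.22%. Here too the test passes more readily with more calls, and the part of call number in these shares was not tested.

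The CHH difference of ago5 in sperm was largest in the AT-rich members, where the ago5 pool was also thinnest. In the low-GC set the mean CHH level was lower by 3.34 ± 0.528 points in ago5 (28.5% of wt21) and by 2.23 ± 0.465 in ago59, and the ago5 sperm pool had 0.533 calls per CHH site against 0.881 in wt21 and 0.792 in ago59. In the high-GC set it was lower by 0.421 ± 0.106 (12.9% of wt21) and 0.452 ± 0.108, with 5.01, 5.54 and 4.55 calls per site. In the largest group the ago5 difference was −4.74 ± 1.14 points, at 0.302 calls per site. Among the 200 members with at least 80% unique words, CHH was lower by 0.652 ± 0.120 in ago5 and 0.752 ± 0.108 in ago59. The ago5 difference was not the larger there, and the 2 intervals overlapped. The part of depth in the ago5 values was not tested.

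**Figure D5:**
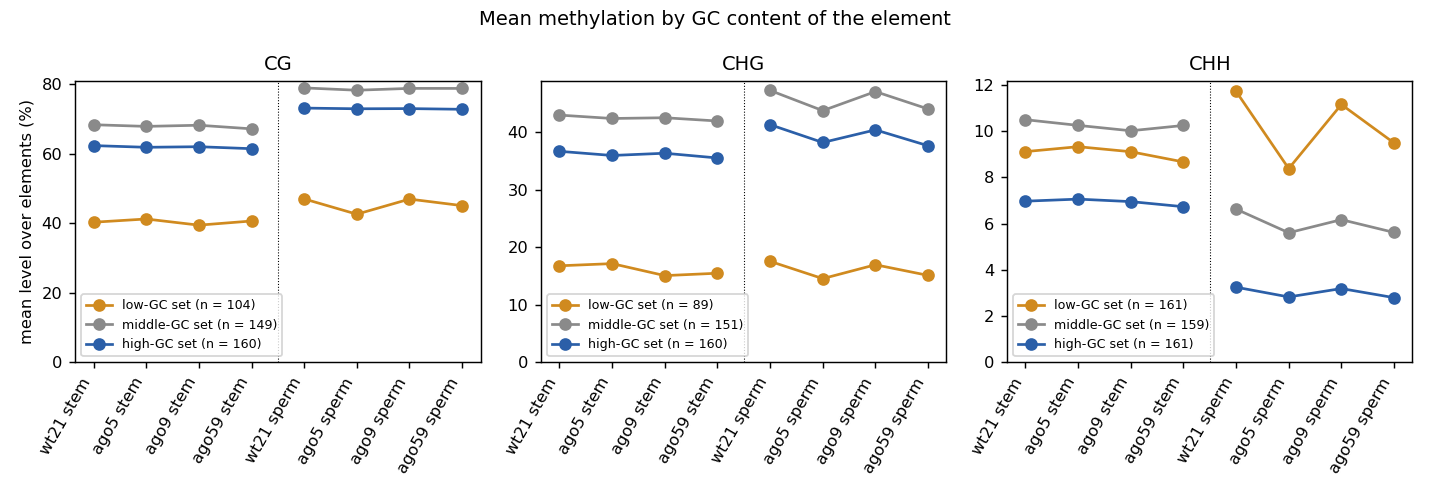
Mean methylation level (%) of long arm elements in the 8 pools by GC content, in CG, CHG and CHH; points are means over elements, without error bars, and the dotted line separates stem-cell from sperm pools. In CHH the low-GC set goes from 9.12% in wt21 stem-cell to 11.7% in wt21 sperm nuclei and the other sets go down; CHG is lower in ago5 and ago59 sperm in every set.

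The CHG difference of the mutants was spread more evenly than that of CHH. In sperm it was −3.00 ± 1.52, −3.51 ± 0.792 and −3.10 ± 0.408 points in ago5 from the low-GC to the high-GC set, and −2.44 ± 1.43, −3.22 ± 0.780 and −3.66 ± 0.406 in ago59. Members with terminal repeats had −5.14 ± 0.876 in ago5 and those without −2.77 ± 0.557. Members under 10% CHG in wt21 stem-cell nuclei had −1.04 ± 0.498 and those at 50 to 80% had −4.04 ± 0.703. For CG, the ago5 sperm difference was −6.89 ± 1.5 among the 70 members at 10 to 50% in wt21 stem-cell nuclei and −0.123 ± 0.294 among the 204 members at 80% or more.

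The 3 members with the most negative CHG difference in ago5 and ago59 sperm included 2 of the sequence group of AT1TE14315. AT1TE14315 had CHG levels of 84.1%, 57.1%, 69.7% and 81% in wt21, ago5, ago9 and ago59 sperm nuclei and 70.1%, 69%, 72.4% and 78.8% in stem-cell nuclei. AT4TE44990, of the same group, had 80.8%, 67.5%, 79.7% and 65.5% in sperm nuclei. AT5TE29680, which shares words with no other member, had 68.5%, 46.3%, 57.5% and 52.7% in sperm and 39.2% to 45.2% in stem-cell nuclei. Each has between 54 and 89 CHG calls in the sperm pools. The wt21 and ago59 intervals overlapped in all 3 members, and the wt21 and ago5 intervals in AT4TE44990 and AT5TE29680 but not in AT1TE14315.

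The 3 members with the most positive CHG difference in both were covered as thinly. AT5TE82140 had 46.1%, 61.5%, 54.1% and 67.1% in wt21, ago5, ago9 and ago59 sperm nuclei. AT1TE20315 had 34.8%, 46.9%, 35.1% and 52.4%. AT4TE49990, of the same sequence group as AT1TE14315, had 64.9%, 74.6%, 70.1% and 78.6%, so members of that group stood at both ends. That wt21 lay below ago5 and ago59 in each follows from how these members were chosen. The ago9 value was above wt21 as well, but it is set against the same wt21 pool.

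Members near the mutant genes were set apart, since such regions can differ between lines. AGO5 (AT2G27880) lies on chromosome 2 from 11871378 to 11876989 and AGO9 (AT5G21150) on chromosome 5 from 7192239 to 7198381. Within 3 Mb lay 35 and 33 members. Without these members, the mean differences of wt21 sperm from stem-cell nuclei and of each mutant from wt21 all stayed within their 95% half-widths. The sperm minus stem-cell differences of the mutants were not recomputed without them.

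Set beside like elements, the members were less uniform than long pericentromeric elements and more methylated than short arm elements. The 2181 pericentromeric elements of at least 2000 bp had, in wt21 stem-cell nuclei, a mean CG level of 79.7% ± 15.6 (SD over 2034 elements), against 59.0% ± 33.0 over 413 members. Of 13103 arm elements under 2000 bp, only 3213 had enough CG calls, and these had 29.0% ± 35.7. Their CHH difference between sperm and stem-cell nuclei was −3.29 ± 0.0399 points and that of short arm elements −0.250, with the members between them at −1.65. In ago5 sperm, CHH was lower by 0.415 ± 0.0462 points in long pericentromeric elements (9.65% of wt21) and by 0.534 in short arm elements (9.73%), against 1.60 (22.2%) in the members. The size of this contrast depends on the average used. With the level over all calls, ago5 differed by −0.280 points in long pericentromeric elements (8.54% of wt21) and −0.621 in short arm elements (13.8%). The members then differed by −0.658 points (17.8%), so their contrast with short arm elements was smaller. CHG in ago5 sperm was lower by 3.91 ± 0.148 points in long pericentromeric elements and by 1.08 ± 0.218 in short arm elements, against 3.23 ± 0.480. These sets differ from the members in length or position by definition, and whether the members differ from them beyond the spread between plants could not be tested.

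Mean levels were lower just above the length limit of 2000 bp than just under it in every context. Arm elements from 1800 to under 2000 bp had a mean CHH level of 11.4% in wt21 stem-cell and 11.5% in wt21 sperm nuclei (n = 54). Members from 2000 to under 2200 bp had 8.23% and 9.27% (n = 76). The SD over elements in stem-cell nuclei was 9.72 points just under the limit and 7.92 just above it. For CG the values were 48.1% and 56.3% just under the limit (n = 36) and 43.4% and 51.0% just above it (n = 52). The stem-cell SD was 34.7 points on both sides.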

How the data were processed

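Cytosine methylation was measured by bisulfite sequencing of sorted nuclei in 8 groups of samples. The authors deposited, per the file headers, whole-number counts of cytosine calls (methylated, and all) for each feature in each context and pool. Bismark, Trim Galore, bedtools 2.30.0 and the build TAIR10 are named in the submitters' processing notes, without role or order. The labels' protocols name a Pico Methyl-Seq kit for the libraries. How reads of repeated sequence, duplicates and incomplete conversion were treated is not given in the sources used here. Of 68992 nuclear features, 37803 have a locus tag in TAIR10.1 and 37799 have the same coordinates there, so sequence was read from that genome.

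Calls came from 48 columns; the 24 columns of levels were not used, and 0 columns could not be mapped. The level of an element was its methylated over total calls, and means were taken without weights over members with at least 20 calls in all 8 pools. The 95% half-widths come from binomial variance, with 1 methylated and 1 unmethylated call added to each element. Single levels have Wilson 95% intervals. All of these cover counting error only. Reads without molecular identifiers are not independent molecules. The table has 1 pool per group, so no replicate test was possible, and the planned description was used. Elements were called at differences of 10 points (CG, CHG) or 5 points (CHH), with the share of all nuclear transposable elements beside them. Unique sequence was the share of an element's 31-base words found once in the genome, with chloroplast and mitochondrial sequence included. The half-widths and counts were run on simulated data with independent calls, as the half-widths assume. Such data cannot test dependence between calls or spread between pools.

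Named elements had at least 50 calls of the context in every pool: the 3 highest and 3 lowest in wt21 stem-cell CHH, the 3 largest sperm minus stem-cell differences in each direction and context with the same sign in 4 genotypes, the 3 largest ago5 and ago59 CHG differences in sperm in each direction, and the 3 longest members. The members, classes and rules were chosen with earlier results of these data known, and the GC sets, sequence groups, unique classes and the classes by overlap with both kinds of gene after seeing the data. Alternatives were other call minimums, thresholds and averages, Fisher's exact test per element, and subsets of members. Python 3.11.15, numpy 2.4.6, pandas 2.3.3, scipy 1.17.1 and numba 0.67.0 were used.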

Additional observations from a re-analysis of the deposited data

Results flagged for a closer look

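The mean CHH level of long arm elements differed from wt21 in ago5 by 0.0196 points in stem-cell nuclei and by −1.60 points in sperm nuclei. These signs are opposite, and with 1 pool per group the difference between the cell types was not tested over replicates. The stem-cell value is within its counting error of 0.140 points, and it was −0.0619 with the level over all calls.

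In chloroplast features, which are no part of the members, the CHH level was above that of the wt21 pool of the same cell type in 3 mutant pools. It was 0.312% in ago5 and 0.307% in ago9 stem-cell nuclei, against 0.303% in wt21. It was 4.56% in ago9 sperm nuclei, against 1.37% in wt21, while the mean CHH level of the members was lower in ago9 than in wt21 sperm.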

How the results depend on the processing

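No paired analysis was possible because the table holds 1 pool per group, and leaving out replicates could not be run for the same reason. Of 189 recomputed mean differences, 129 stayed within the 95% half-width of the value reported and the others moved further. In all, 7 took the other sign, and in 4 of these the value reported was itself within its half-width: ago5 CHH in stem-cell nuclei became −0.0619 over all calls, −0.145 without overlap with a gene and −0.0873 at 4000 bp or more, and ago9 CG in sperm became 0.135 with at least 1 call. Of 60 recomputed counts 36 stayed within 1.5 times. Leaving out members near AGO5 or AGO9 moved none. The level over all calls weights members by their calls, and the size of the CHH differences depends on that choice. Depth limits the AT-rich and repeated members most.

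With the level over all calls, the wt21 sperm minus stem-cell difference was 4.31 points for CHG and −3.29 for CHH. In sperm under that setting, ago5 differed by −2.22 (CG) and −0.658 (CHH), ago9 by −0.139 (CHH) and ago59 by −1.43 (CG), −3.83 (CHG) and −0.558 (CHH). In stem-cell nuclei, ago5 CHG was −1.12, ago9 CG −1.21 and ago59 CHG −1.54. With medians, the sperm minus stem-cell differences were 11.4 (CG), 2.90 (CHG) and −1.94 (CHH). Median differences in sperm were −0.222 (CG) and −0.611 (CHH) in ago5, −0.128 (CHH) in ago9, and −0.199 (CG) and −0.437 (CHH) in ago59. In stem-cell nuclei they were −0.189 (CHG) and 0.00549 (CHH, reversed) in ago9 and −0.751 (CHG) and −0.147 (CHH) in ago59.

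With at least 1 call, sperm minus stem-cell was 8.79 (CG) and 2.78 (CHG), ago9 CHG in sperm reversed to 0.272, and in stem-cell nuclei ago5 CG was −0.587 and ago59 CHG −1.55. With at least 50 calls, sperm minus stem-cell was 4.09 (CHG) and −1.88 (CHH), and ago5 CG in sperm −0.912. Members of 4000 bp or more gave 11.4 (CG), 4.86 (CHG) and −4.33 (CHH) for sperm minus stem-cell, −0.465, −3.76 and −0.813 for ago5 in sperm, −1.06 (CHG) for ago9, −3.69 (CHG) and −0.726 (CHH) for ago59, and −1.0 for ago5 CHG in stem-cell nuclei. Without overlap with a gene or pseudogene the values were 10.9 (CG) and −2.22 (CHH) for sperm minus stem-cell, −1.02 for ago5 CG and −3.73 for ago59 CHG in sperm, and −0.614 for ago59 CHH in stem-cell nuclei.

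Subsets by unique words and by sequence group were chosen after seeing the data. Members with at least 80% unique words gave 8.70 (CG) and −1.41 (CHH) for sperm minus stem-cell, −0.933, −2.39 and −0.652 for ago5 in sperm, −0.752 for ago59 CHH in sperm, and in stem-cell CHH 0.259 for ago9, which reversed, and −0.140 for ago59. Without the largest sequence group, sperm minus stem-cell was 10.4 (CG), 4.15 (CHG) and −2.28 (CHH), and ago5 in sperm −0.979 (CG) and −1.17 (CHH). The cause of these changes was not tested.

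Members lower and higher in wt21 sperm than in stem-cell nuclei were also counted at limits of 20 points (CG, CHG) and 10 points (CHH). They numbered 3 and 23 (CG), 5 and 13 (CHG), and 15 and 23 (CHH), so that in CHH more members were then higher than lower. At 10 points in sperm CHH, ago5 had 31 lower and 6 higher members, ago9 had 15 and 10, and ago59 had 19 and 5. No share of all elements was taken at these limits. With Fisher's exact test per element added, adjusted over all elements, 4 members were lower in sperm in CG, 4 were lower and 43 higher in CHG, and in sperm CHH ago5 had 39 lower and 6 higher, ago9 had 22 and 11, and ago59 had 26 and 4. That test compares the calls of 2 pools, not genotypes. With at least 10 calls, 28 members were lower in CHG, and with at least 50 calls 4 were lower in CG and 5 in CHG. No share of all elements was taken at these call minimums.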
